A study of Mus musculus with 39 samples.

Results

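The genes described here carry GABA-A receptors to the cell surface or hold them at the synapse: Gabarap, Gabarapl1, Gabarapl2, Gphn, Nlgn2, Nsf and Zdhhc3. They were taken by name, as every probe set (the group of short probes that reads 1 transcript) annotated with only 1 of these 7 symbols. That gave all 7 genes, of 12393 that the array names, and 11 probe sets of 22626 measured, namely 2 each for Gabarapl1, Gphn, Nsf and Zdhhc3 and 1 each for Gabarap, Gabarapl2 and Nlgn2. The inferior colliculus, the auditory midbrain, of 39 CBA/CaJ mice was profiled on Affymetrix MOE430A arrays, 1 array per mouse, and the question was how expression differed with age and with presbycusis, the hearing loss of ageing. The groups were severe presbycusis (5 mice, 4 females and 1 male), mild presbycusis, a limited loss of hearing (9 mice, 4 females and 5 males), middle-aged mice with good hearing (17 mice, 10 females and 7 males) and young adult controls with good hearing (8 mice, 4 females and 4 males). All were inbred, untreated, normally ageing animals raised together. The labels used here give no ages, and how much age and hearing loss each contribute to a difference from young mice cannot be told apart.

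GABA-A receptors are chloride channels that give fast inhibition, and their number at a synapse depends on delivery, anchoring and removal. Gabarap, Gabarapl1 and Gabarapl2 are small ubiquitin-like proteins of the ATG8 family, which act in membrane transport and autophagy; GABARAP binds the gamma2 receptor subunit, and it also binds NSF and gephyrin. NSF is the ATPase that takes used SNARE complexes apart, ZDHHC3 attaches palmitate to the gamma2 subunit in the Golgi, gephyrin (Gphn) is the scaffold under glycine and GABA-A receptors, and neuroligin-2 (Nlgn2) is the adhesion molecule of inhibitory synapses. In the inferior colliculus, GABA shapes how neurons respond to sound.

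The deposited series values are intensities on a linear scale, analysed as log2(intensity + 16). Probe sets are described by their brightness, but levels of different probe sets were not read as relative amounts of RNA. Markers of the labelled tissue differed in brightness. Slc17a6 of excitatory neurons had a median intensity of 4686, and of the inhibitory neuron genes Gad1 had 6904, Slc32a1 1694 and Gad2 338. Of 5 midbrain genes En2 had 849 and Otx2 283, while En1 (129), Gata3 (111) and Tfap2b (72.3) were dimmer than most probe sets of the array. Summed over 7 cerebellar markers, the level ranged from 2716 to 3496 in severe, 2353 to 3727 in mild, 2000 to 23065 in middle-aged and 2428 to 33507 in young mice, and the 3 arrays with the highest cerebellar mean were young mouse 2 and middle-aged mice 7 and 8. Of 10 microglial markers, 7 were called higher in severe than in young mice and 4 in mild than in young mice. None of 8 neuronal markers was called, 2 were lower in severe than in young mice at an unadjusted p under 0.05, and their median log2 difference between severe and young mice was -0.24, with sums of 19499 to 28009 in severe and 22012 to 33480 in young mice. In this bulk tissue fewer cells of a type and less RNA per cell cannot be told apart, and the part of these markers in the members' values was not tested.

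None of the 11 member probe sets passed the test in any comparison of hearing groups. Values were tested with limma (group means with sex as a covariate, Benjamini-Hochberg adjustment over all 22626 probe sets, threshold 0.05). Between severe and young mice 0.53% of all probe sets were called, between mild and young mice 0.168%, and between middle-aged and young mice 0.00442%. The shares called were 0.486% for severe against middle-aged, 0.11% for mild against middle-aged and 0% for severe against mild mice. Members' adjusted p-values ran from 0.447 to 0.985 for severe against young mice and from 0.703 to 0.996 for mild against young mice. At an unadjusted p under 0.05, 3 of the 11 were lower in severe than in young mice, against 3.59% of all probe sets lower and 7.66% in either direction. The 3 were Zdhhc3 1423646_at, Gphn 1426463_at and Gabarapl2. Under the alternatives of processing described below, this count ran from 1 to 3. It was 1 with arrays centred on their median, with array weights, with the 2 groups alone and without the 3 highest cerebellar arrays. By the same unadjusted mark 1 member, Gabarapl2, was lower in mild than in young mice (1.81% of all probe sets lower, 6.61% in either direction), and 0 differed between middle-aged and young mice (5.09%). For severe against middle-aged mice it was 2 lower, Gphn 1426462_at and Zdhhc3 1423646_at, and 1 higher, Gabarap (2.73% of all probe sets lower, 3.19% higher and 5.91% in either direction). None passed it in mild against middle-aged (4.11%) or in severe against mild mice (3.73%). The moderated F-test across the 4 groups also called 0 of 11 and none had an unadjusted p under 0.05 (0.53% of all probe sets called, 5.89% under the unadjusted mark). The median log2 difference of the 11 was -0.25 for severe against young mice, where that of all probe sets was -0.03, and 9 of the 11 were below 0 (55.5% of all probe sets). It was -0.05 for mild against young mice (all probe sets 0.03) and -0.08 for middle-aged against young mice (all probe sets -0.000996). These comparisons share the 8 young arrays. For every member the ranges of every pair of groups overlapped. The share of all probe sets whose ranges overlap was not counted, so this says nothing particular about the members.

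**Figure D1:**
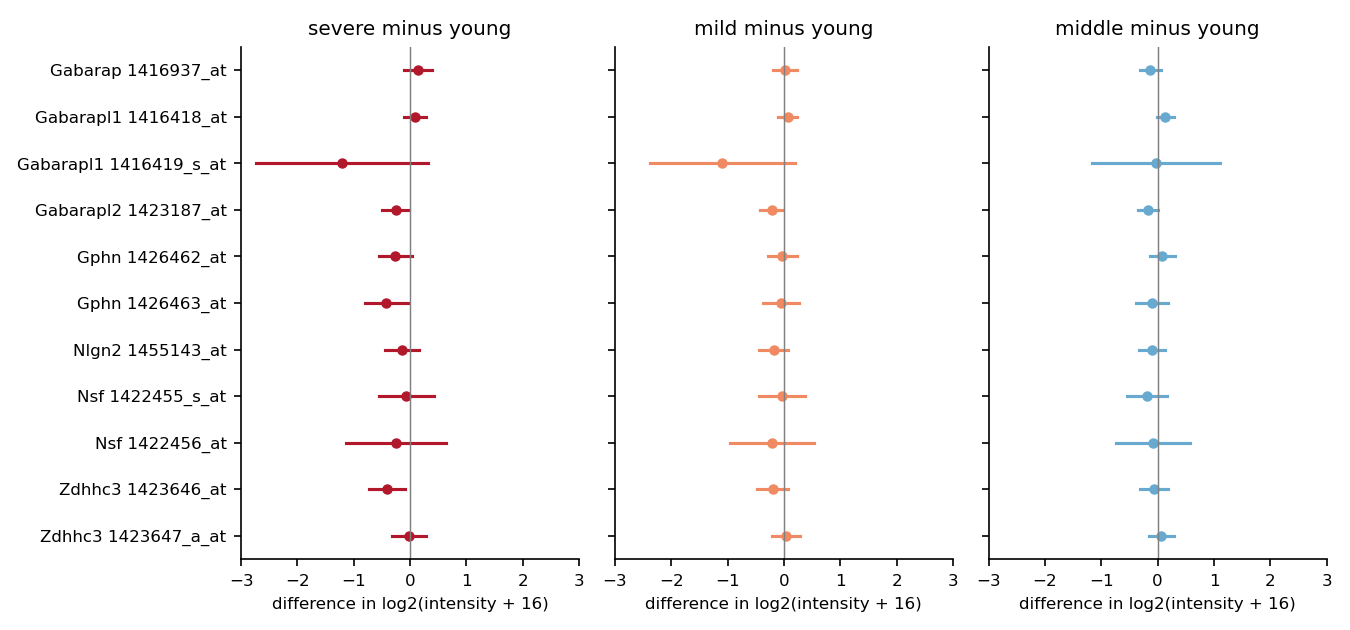
Differences in log2(intensity + 16) from the young controls for the 11 member probe sets, in severe, mild and middle-aged mice; points are limma estimates with sex as a covariate and lines are 95% intervals. The widest intervals are those of Gabarapl1 1416419_s_at, from -2.73 to 0.32 in severe mice, and the intervals that leave out 0 are those of Gabarapl2 in severe and mild mice and of Gphn 1426463_at and Zdhhc3 1423646_at in severe mice.

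Gabarapl1 encodes an ATG8-family relative of GABARAP that binds tubulin and GABA-A receptors. Its 2 probe sets differed widely in their spread between mice. Probe set 1416419_s_at, whose suffix marks probes that match several transcripts and possibly more than 1 gene, had intensities of 4488, 6716, 2870, 1844 and 197 in the 5 severe mice. Its lowest, median and highest were 129, 2176 and 8782 in mild mice, 591, 4381 and 15061 in middle-aged mice and 2259, 4164 and 7470 in young mice. The lowest 4 mice of all were mild mouse 6 (129), severe mouse 5 (197), mild mouse 5 (291) and middle-aged mouse 17 (591). They came from 3 groups, and every other mouse read at least 1393. Over all 39 mice the highest value was 117 times the lowest, and the SD was 1.45 on the log2 scale. Among the 1080 probe sets within 0.5 log2 units of its mean brightness the median SD was 0.26, and only 3 had a higher one.

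Probe set 1416418_at of the same gene was among the steadiest of its brightness. It read 2988, 2993, 2563, 2923 and 2687 in the severe mice. The lowest, median and highest were 2320, 2895 and 3134 in mild, 2312, 2896 and 3665 in middle-aged and 2191, 2737 and 3207 in young mice. All 4 groups therefore lay within 2191 to 3665, a 1.67-fold range, with an SD of 0.16 that only 3.81% of 1156 probe sets of like brightness stayed under. In the 4 mice lowest for 1416419_s_at, in the order given above, 1416418_at read 2320, 2687, 2895 and 2896. Mild mouse 6 was thus the lowest mild mouse by both probe sets, severe mouse 5 was the second lowest severe mouse by 1416418_at, and the other two stood at the medians of their groups.

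For Gabarapl1 the severe-minus-young difference was -1.20 (SE 0.75) by 1416419_s_at and 0.09 (SE 0.10) by 1416418_at, with limma adjusted p-values of 0.773 and 0.897. Without severe mouse 5 the first came to -0.39 (95% interval -1.86 to 1.08). The mild-minus-young difference was -1.09 (SE 0.63) by 1416419_s_at and 0.07 (SE 0.08) by 1416418_at, with limma adjusted p-values of 0.802 and 0.950. Without mild mouse 6 the first came to -0.65, and without mild mouse 5 to -0.70. The middle-minus-young difference was -0.03 (SE 0.56) and 0.14 (SE 0.07) in the same order. By 1416419_s_at it was 0.55 in females alone and -0.75 in males alone. That gap between the sexes did not pass (limma interaction of sex and group, adjusted p 0.852). Whether the 2 probe sets differed unequally between groups was tested on the difference between them within each array. That difference, 1416419_s_at minus 1416418_at, averaged -0.48 ± 1.90 in severe (SD, n = 5), -0.56 ± 1.97 in mild (n = 9), 0.52 ± 1.08 in middle-aged (n = 17) and 0.63 ± 0.58 in young mice (n = 8). Severe and young mice differed by -1.11 (exact permutation test, 2-sided, p = 0.162, adjusted p = 0.747 over 24 tests), and by -0.32 without severe mouse 5. Mild and young mice differed by -1.19 (exact permutation p = 0.124, adjusted p = 0.747), and by -0.76 without mild mouse 6. The SDs of the presbycusis groups, which describe the spread between mice and not the precision of a difference in means, exceeded these differences. The permutation tests took no account of sex, and the SDs differed between groups. The 2 probe sets of Gphn, of Nsf and of Zdhhc3 were compared in the same way, and 0 of the 24 tests passed; the lowest adjusted p was 0.747. A p above the threshold does not show that the probe sets moved alike.

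Across the 39 mice the 2 Gabarapl1 probe sets had a Pearson r of 0.24 (permutation p = 0.144) and a Spearman rho of 0.03 (permutation p = 0.831). Without the 2 mice farthest from the median of 1416418_at, r was 0.19. It was 0.48 within mild mice (n = 9, exact permutation p = 0.194), 0.10 within middle-aged mice (n = 17, permutation p = 0.704) and 0.17 within young mice (n = 8, exact permutation p = 0.693).

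**Figure D2:**
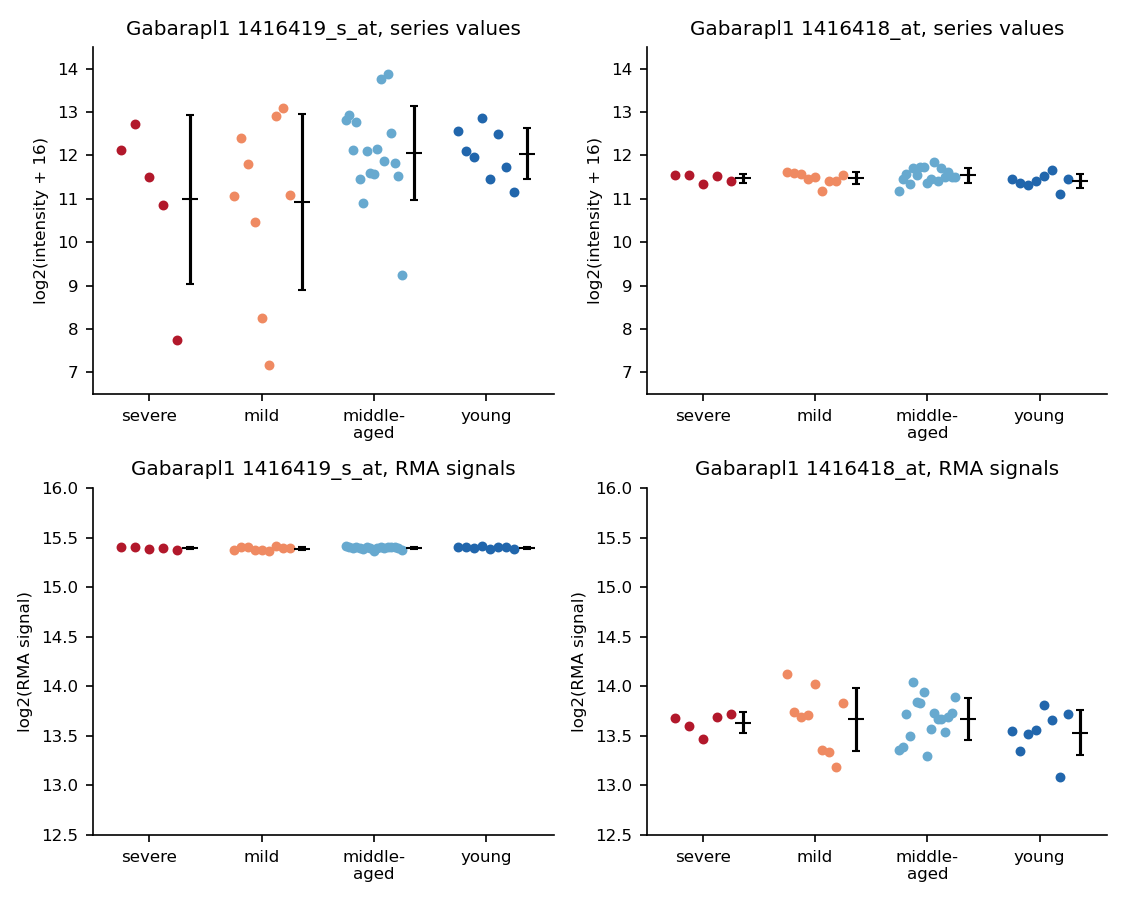
The 2 probe sets of Gabarapl1 in each mouse, by hearing group: the series values as log2(intensity + 16) above and the authors' RMA signals on the log2 scale below; bars are the mean ± SD. Probe set 1416419_s_at spans a 117-fold range in the series values and a 1.04-fold range in the RMA signals, while 1416418_at spans 1.67-fold and 2.06-fold; the vertical axes of the upper and lower rows differ.

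The authors also deposited RMA signals for 33 probe sets they chose, among them the 4 of the GABARAP family. There the order of the Gabarapl1 probe sets by spread was the other way round. By RMA, 1416419_s_at read 43360, 43383, 42865, 43097 and 42474 in the severe mice, and 42115 to 43620 in mild, 42182 to 43594 in middle-aged and 42796 to 43575 in young mice. Its SD of 0.013 on the log2 scale was the lowest of the 33, against a median SD of 0.15 over the table, and its range was 1.04-fold. The other 32 probe sets reached at most 43594, so these were readings at the top of the table's scale. Mice nevertheless ranked much alike by both kinds of value (Spearman rho 0.90, Pearson r 0.83, permutation p = 1e-05 for each, the smallest that 100000 resamples can give). The RMA signal of 1416418_at was 13138, 12422, 11308, 13229 and 13532 in severe mice, 9336 to 17854 in mild, 10100 to 16860 in middle-aged and 8677 to 14337 in young mice, with an SD of 0.23. Between the 2 probe sets r was -0.27 by RMA (permutation p = 0.0946), with a rho of -0.42 (permutation p = 0.00754), values that read a probe set with almost no range at the top of that scale. In the authors' deposited table the ratios over young mice were 0.996 for severe, 0.992 for mild and 0.998 for middle-aged mice by 1416419_s_at. Recomputed here, each equals the geometric mean of the group over the arithmetic mean of the young mice. By 1416418_at the authors' deposited table gives 1.06, 1.09 and 1.09 in the same order, and it places the gene on chromosome 6, band F3.

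Gabarapl2, the relative also known as GATE-16 that acts in transport within the Golgi and interacts with NSF, had a lower median in each older group than in young mice. Its intensity was 3171, 3960, 4517, 3579 and 3655 in severe mice. The lowest, median and highest were 2955, 3676 and 4720 in mild, 3200, 3987 and 4684 in middle-aged and 3649, 4402 and 5760 in young mice. The ranges of the 4 groups overlapped. The log2 difference from young mice was -0.25 (SE 0.12) in severe mice, where 4 of 5 lay under the young mean, with a limma adjusted p of 0.619. It was -0.22 (SE 0.10) in mild mice, of which 6 of 9 lay under it, with a limma adjusted p of 0.703. In males alone that difference was 0.0054 and in females alone -0.48, so its direction rests on the females. In middle-aged mice it was -0.17 (SE 0.09), with 15 of 17 under the young mean and a limma adjusted p of 0.981. The RMA signals gave -0.17 (SE 0.06) for severe and -0.15 (SE 0.05) for mild against young mice, with limma p-values adjusted over the 33 probe sets of 0.136 and 0.230. The authors' deposited table gives ratios over young mice of 0.884 for severe, 0.899 for mild and 0.950 for middle-aged mice, and places Gabarapl2 on chromosome 8, band E1. Without the 3 arrays highest in cerebellar markers, the severe-minus-young difference was -0.18 (95% interval -0.42 to 0.06).

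Gabarap, the founding member of the family, read 992, 894, 1038, 1171 and 1045 in severe mice. Its lowest, median and highest were 754, 942 and 1221 in mild, 612, 840 and 1262 in middle-aged and 792, 923 and 1094 in young mice. Severe mice thus lay high within the range of the other groups. The severe-minus-young difference was 0.14 (SE 0.12, limma adjusted p 0.858). Severe minus middle-aged was 0.28 (SE 0.11), with all 5 severe mice above the middle-aged mean and a limma adjusted p of 0.606. By RMA that difference was 0.26 (SE 0.08, limma p adjusted over 33 probe sets 0.0651). The authors' deposited table has ratios over young mice of 1.10 for severe, 1.01 for mild and 0.922 for middle-aged mice and places the gene on chromosome 11, band B4.

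Of the anchoring proteins, gephyrin was read by 2 probe sets. Gphn 1426462_at had intensities of 854, 674, 556, 722 and 688 in severe mice. The lowest, median and highest were 692, 855 and 991 in mild, 668, 892 and 1375 in middle-aged and 633, 896 and 1199 in young mice. Only severe mouse 1 was near the medians of the other groups. Gphn 1426463_at was dimmer, at 310, 126, 159, 212 and 209 in severe mice, with 224, 252 and 332 in mild, 162, 256 and 310 in middle-aged and 143, 273 and 414 in young mice (lowest, median and highest). Here too severe mouse 1 was the highest of its group, and 4 of 5 severe mice lay under the young mean. Severe minus young was -0.26 (SE 0.15, limma adjusted p 0.733) by 1426462_at and -0.42 (SE 0.19, limma adjusted p 0.586) by 1426463_at. Severe minus middle-aged was -0.34 (SE 0.13, limma adjusted p 0.554) and -0.32 (SE 0.17, limma adjusted p 0.865). Without young mouse 1 the severe-minus-young difference of 1426462_at was -0.17, and without severe mouse 2 the severe-minus-middle difference of 1426463_at was -0.18. In mild mice the differences from young mice were -0.03 (SE 0.13) and -0.05 (SE 0.16). The 2 gephyrin probe sets correlated across the 39 mice, with r = 0.48 (permutation p = 0.0016, adjusted p = 0.022 over 55 member pairs) and rho = 0.35, which did not pass (adjusted permutation p = 0.137); the r was 0.43 without the 2 mice farthest from the median. Within groups r was -0.11 in mild (n = 9, exact permutation p = 0.774), 0.25 in middle-aged (n = 17, permutation p = 0.322) and 0.67 in young mice (n = 8, exact permutation p = 0.067). Thus r did not pass in any of these 3 small groups alone, while rho in young mice was 0.74 (exact permutation p = 0.0458). Over deviations from group means in all 39 mice, r was 0.43 (permutation p = 0.00678) and rho 0.33 (permutation p = 0.0385). These p-values were not adjusted. The r was 0.63 and 0.40 on arrays with and without the suffix that some array names carry.

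Nlgn2 read 457, 398, 655, 578 and 489 in severe mice. The lowest, median and highest were 364, 520 and 706 in mild, 407, 517 and 709 in middle-aged and 376, 554 and 757 in young mice. The ranges of the 4 groups overlapped widely. Severe minus young was -0.14 (SE 0.15, limma adjusted p 0.886) and mild minus young -0.18 (SE 0.13, limma adjusted p 0.852), with a 95% interval in severe mice of -0.45 to 0.16. The severe-minus-young difference was -0.06 without severe mouse 2, -0.07 without young mouse 2, -0.23 without severe mouse 3 and -0.24 without young mouse 1. The mild-minus-young difference was -0.03 in males alone and -0.35 in females alone.

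Zdhhc3, the Golgi palmitoyltransferase, was read at 669, 903, 833, 552 and 986 by 1423646_at in severe mice. The lowest, median and highest were 542, 949 and 1139 in mild, 552, 1022 and 1287 in middle-aged and 839, 1017 and 1176 in young mice. All 5 severe mice lay under the young mean, and 2 of them lay inside the young range. Severe minus young was -0.41 (SE 0.16), the member with the smallest unadjusted p of this comparison (0.0145), and its limma adjusted p was 0.447. Severe minus middle-aged was -0.35 (SE 0.14, limma adjusted p 0.648) and mild minus young was -0.20 (SE 0.14, limma adjusted p 0.845). Without severe mouse 4 the severe-minus-middle difference was -0.23, and without mild mouse 1 the mild-minus-young difference was -0.10. The other probe set, 1423647_a_at, was in the dimmest 10.0% of probe sets, with group medians of 20.1 to 22.2. Its severe-minus-young difference was -0.02 (SE 0.15), on a log2(intensity + 16) scale that compresses changes at such low intensities.

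Nsf was read by 2 probe sets of unlike behaviour. By 1422456_at the intensity was 5299, 5667, 4705, 4943 and 1559 in severe mice, with 1967, 2923 and 11732 in mild, 2043, 3694 and 17897 in middle-aged and 2390, 4563 and 6963 in young mice (lowest, median and highest). Severe mouse 5 was the lowest of all 39 and the other 4 severe mice lay close together. The highest value was 11.5 times the lowest, and of 984 probe sets of like brightness 20 had a higher SD than its 0.79. By 1422455_s_at the severe mice read 1005, 912, 936, 1527 and 1275, and the others 811, 1145 and 1638 in mild, 718, 1006 and 2319 in middle-aged and 795, 1037 and 2672 in young mice. Neither separated the groups. Severe minus young was -0.25 (SE 0.44, limma adjusted p 0.937) by 1422456_at and -0.07 (SE 0.24, limma adjusted p 0.976) by 1422455_s_at. Without severe mouse 5 the first was 0.10. The second was -0.62 in females alone (limma unadjusted p 0.0139, adjusted p 0.252) and 0.13 without young mouse 1. The 2 Nsf probe sets had an r of 0.0078 across the 39 mice (permutation p = 0.961).

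**Figure D3:**
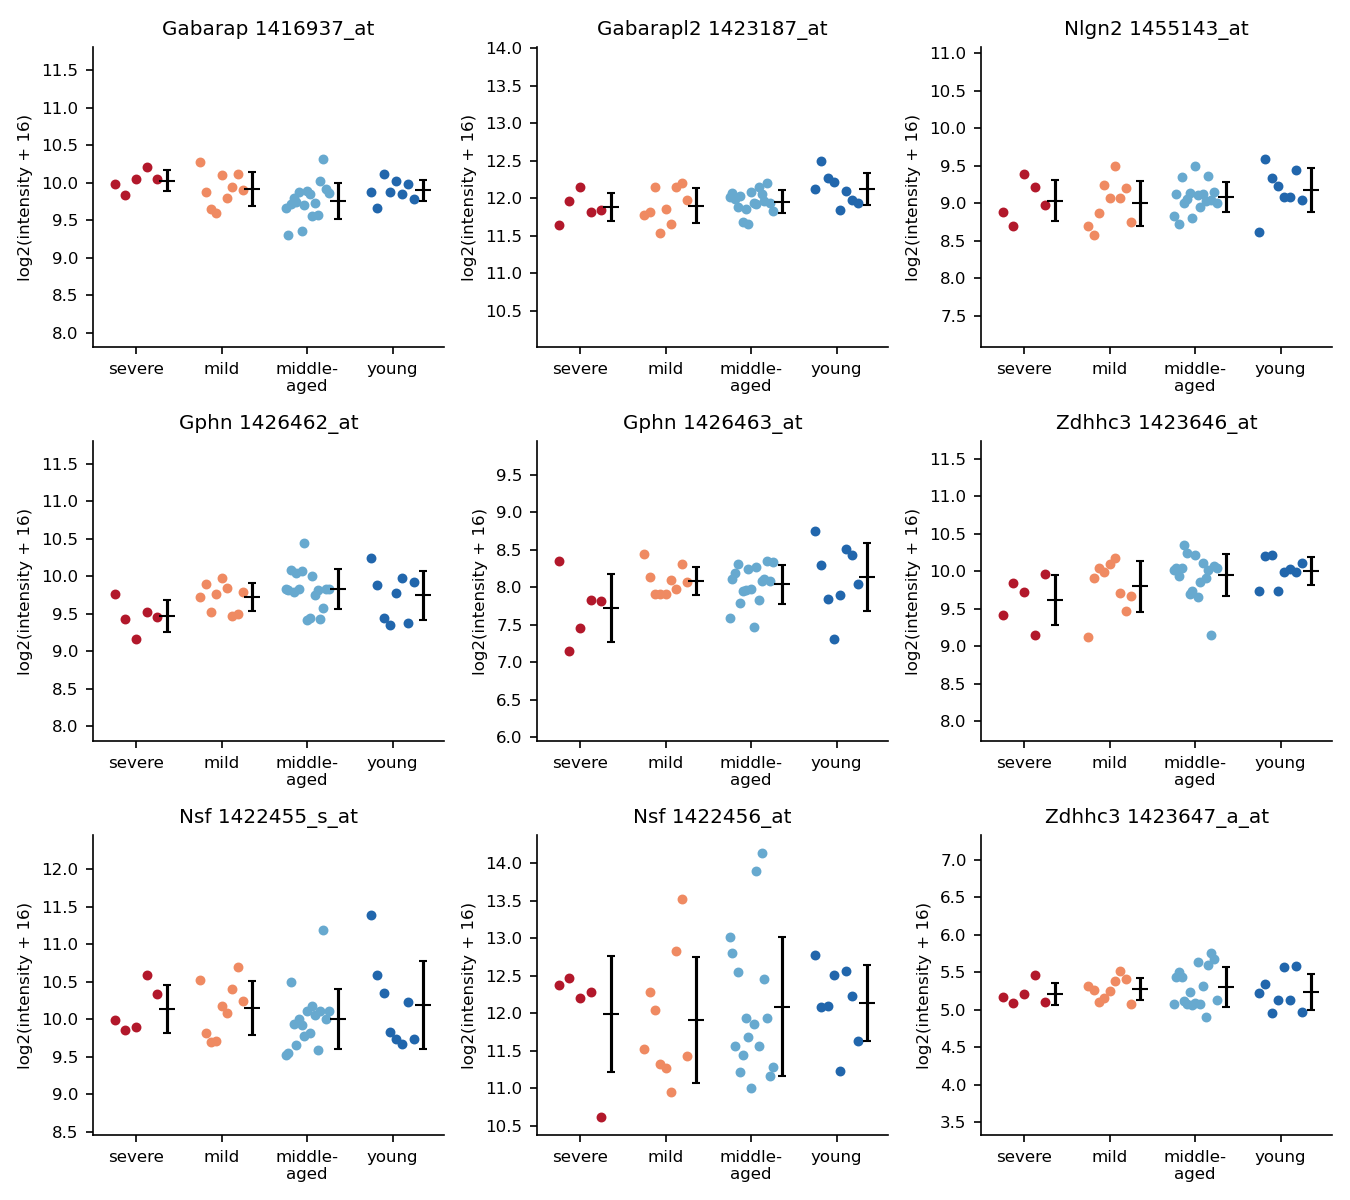
The other 9 member probe sets in each mouse, by hearing group, as log2(intensity + 16); bars are the mean ± SD and every panel spans the same number of log2 units. The groups overlap in every panel, and the spread between mice is widest for Nsf 1422456_at, whose SD is 0.79.

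By sex, 0 of the 11 were called in male minus female (0.0486% of all probe sets called), and none had an unadjusted p under 0.05 (3.73%). Whether the difference from young mice differed between males and females could be tested for middle-aged and mild mice, and 0 of 11 members were called in either (0% and 1.23% of all probe sets called). Nsf 1422455_s_at was the member with the smallest unadjusted p in both. In young mice it read 795 to 892 in the 4 males and 1183 to 2672 in the 4 females. The share of all probe sets with 2 such separate ranges was not counted. In mild mice Nsf 1422455_s_at read 811 to 1638 in males and 824 to 1453 in females. In middle-aged mice it read 790 to 2319 in males and 718 to 1428 in females. The interaction was 1.06 (SE 0.31, p = 0.00145, limma adjusted p 0.460) for middle-aged and 1.06 (SE 0.35, p = 0.0041, limma adjusted p 0.110) for mild against young mice. Both subtract the same gap between young males (mean log2 9.74) and young females (10.64), so they are not 2 independent results. Unadjusted, 7.27% and 15.4% of all probe sets had an interaction p under 0.05. Gabarapl2 had an interaction of 0.48 (SE 0.18, limma adjusted p 0.182) in mild mice, with a mean log2 level of 12.03 ± 0.22 in mild males and 11.74 ± 0.14 in mild females (SD, n = 5 and 4), against 12.02 ± 0.17 in young males and 12.22 ± 0.22 in young females (n = 4 each).

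**Figure D4:**
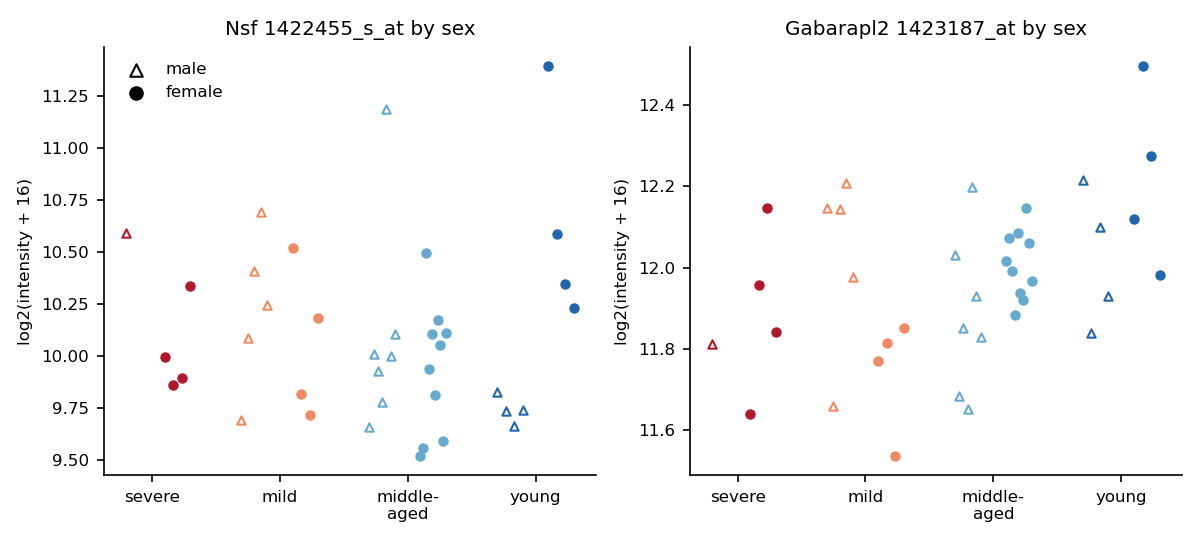
Nsf 1422455_s_at and Gabarapl2 1423187_at in each mouse as log2(intensity + 16), by hearing group and sex (open triangles, males; filled circles, females). The 4 young males lie under the 4 young females for Nsf 1422455_s_at, a separation that was not counted over all probe sets. The interaction of sex and group did not pass the threshold for either probe set.

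From mouse to mouse some member probe sets correlated with each other. Of 55 pairs of member probe sets, 11 had a Pearson permutation p under 0.05 after Benjamini-Hochberg adjustment, 6 positive and 5 negative. By Spearman's rho 6 of these 11 passed the same threshold and 5 did not. All 11 kept their sign without the 2 mice farthest from the median of the first-named probe set. These pairs were picked for their r over all mice, so a kept sign says little. How many would still pass was not counted. The values of a pair come from the same array and share its scaling. How often pairs of other probe sets pass was not tested, so the count says nothing particular about the members. The closest pair was Gabarapl1 1416419_s_at and Nsf 1422456_at, with r = 0.78 and rho = 0.87 (adjusted permutation p = 0.00055 for each). The r was 0.84 within mild mice (n = 9, exact permutation p = 0.00678), 0.83 within middle-aged mice (n = 17, permutation p = 1e-05) and 0.86 within young mice (n = 8, exact permutation p = 0.006). It was 0.71 in males and 0.81 in females. On the 8 arrays whose names carry a suffix it was 0.67 (exact permutation p = 0.0648), against 0.80 on the 31 without. Gabarap and Nsf 1422455_s_at had r = 0.53 and rho = 0.58 (adjusted permutation p = 0.0107 and 0.00202). That r was 0.85 within mild, 0.67 within middle-aged and -0.11 within young mice, and 0.80 and 0.45 on arrays with and without the suffix. Gabarapl1 1416418_at and Nlgn2 ran opposite to each other, with r = -0.52 and rho = -0.59 (adjusted permutation p = 0.0139 and 0.00202). Within groups that r was -0.91 in mild (exact permutation p = 0.000408), -0.33 in middle-aged (permutation p = 0.196) and -0.55 in young mice (exact permutation p = 0.151). Without adjustment it thus passed only in mild mice. It was -0.62 on arrays with the suffix (exact permutation p = 0.103) and -0.47 on those without (permutation p = 0.00759).

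The most variable members also moved with a measure of the arrays themselves. Actb and Gapdh control probe sets at the 3' and 5' ends of the transcript gave a mean log2 ratio of 3' over 5' signal of 1.87 to 2.84 in severe, 1.37 to 2.67 in mild, 1.48 to 2.99 in middle-aged and 2.08 to 2.71 in young mice. Nsf 1422456_at correlated with this ratio at r = 0.61 (rho 0.65, permutation p = 6e-05, adjusted p = 0.00066 over 22 relations) and Gabarapl1 1416419_s_at at r = 0.54 (rho 0.70, permutation p = 0.0005, adjusted p = 0.00367). Without the 2 arrays farthest from the median ratio the r values were 0.69 and 0.66. For the other probe set of each gene the sign was opposite or the value near 0, at -0.45 for Nsf 1422455_s_at (-0.27 without the 2 farthest arrays) and -0.11 for Gabarapl1 1416418_at. Gabarap had r = -0.48, which came to -0.29 without the 2 farthest arrays, mild mouse 1 and middle-aged mouse 15, so that relation rests on those arrays. With the ratio as a further covariate in limma, its slope per log2 unit was 1.88 for Gabarapl1 1416419_s_at (adjusted p 0.0356) and 1.30 for Nsf 1422456_at (adjusted p 0.00884), and 4.48% of all probe sets were called for it. In that fit the severe-minus-young difference of Gabarapl1 1416419_s_at was -0.82 (95% interval -2.18 to 0.55). Zdhhc3 1423647_a_at, the dimmest member, moved with the median intensity of the array (r = 0.69, rho 0.75, adjusted permutation p = 0.00022). With the name suffix as covariate, its term was -0.30 (SE 0.09, limma adjusted p 0.126) for Gphn 1426462_at. It was 0.24 (SE 0.10, limma adjusted p 0.285) for Nlgn2 and 0.18 (SE 0.08, limma adjusted p 0.309) for Gabarapl2. Of all probe sets 0.853% were called for it. Suffix arrays were 2 of 5 in severe (mice 3 and 4), 2 of 9 in mild, 3 of 17 in middle-aged and 1 of 8 in young mice. What part these array measures have in the members' spread was not tested further.

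**Figure D5:**
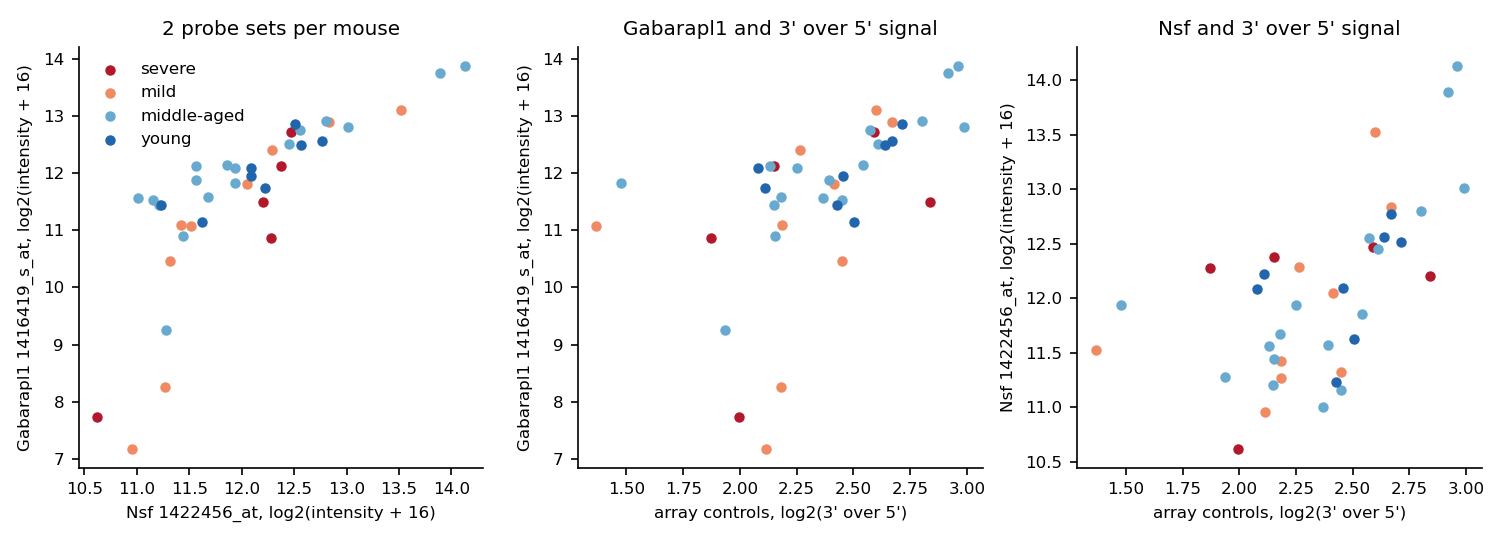
Each point is 1 mouse: Gabarapl1 1416419_s_at against Nsf 1422456_at, and each of these against the log2 ratio of 3' over 5' signal of the array's Actb and Gapdh control probe sets. The r of the 2 probe sets is 0.78, and against the ratio r is 0.54 for Gabarapl1 and 0.61 for Nsf.

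By likeness across the 39 arrays, the probe sets closest to Gabarapl1 1416419_s_at were those of Pebp1 (r = 0.94), Hnrnpab (0.91) and Atp5j (0.91). Closest to Nsf 1422456_at were Ywhah, Ndrg4 and Rtn4, with r of 0.96 for each. The 100 probe sets most like each were among the brightest of the array, with median brightness percentiles of 99.1 and 99.3. For Gabarapl1 1416418_at the closest were Ctsl (0.70), Rpl35 (0.67) and Txnl1 (0.66), with none of these in common with the other probe set of the gene. Zdhhc3 1423646_at was closest to Map4, Spred2 and Ugp2, at 0.83 each, and Gphn 1426462_at to Fstl1 (0.77). The nearest to Gabarap, Gabarapl2 and Nlgn2 were Prkag2 (0.71), Gtf2b (0.73) and Rmdn3 (0.71).

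The wider pathways were read through 1 probe set per gene, the brightest. None of their genes was called in any of the 6 group comparisons. Of all 12393 genes, 0.694% were called between severe and young, 0.218% between mild and young and 0.00807% between middle-aged and young mice. The share was 0.637% for severe against middle-aged, 0.161% for mild against middle-aged and 0% for severe against mild mice. Between severe and young mice 8.42% of 12393 genes had an unadjusted p under 0.05, and the median log2 difference of all of them was -0.02. Of 10 measured genes of anchoring and synapse adhesion, 0 had such a p and the median was -0.19; the smallest p was that of the dynein light chain Dynll1 (-0.17, SE 0.13, limma adjusted p 0.840). Of 20 genes of receptor transport, 2 were lower and 1 higher by that mark, with a median of -0.08. The lower were 2 of 5 subunits of the clathrin adaptor AP2, which takes receptors into the cell: Ap2a2 averaged 9.24 on the log2 scale in severe and 9.65 in young mice (difference -0.40, SE 0.13, limma adjusted p 0.261), and Ap2m1 averaged 11.13 and 11.59 in the same order (-0.49, SE 0.20, limma adjusted p 0.525). The other AP2 subunits had differences above 0, at 0.32 (SE 0.18) for Ap2b1, 0.28 (SE 0.20) for Ap2s1 and 0.06 (SE 0.25) for Ap2a1, and none of the 5 passed the adjusted threshold. The higher was Rdx, radixin, which ties extrasynaptic GABA-A receptors to actin (0.39, SE 0.14, limma adjusted p 0.351). Of 13 SNARE genes, 0 had such a p, with a median of 0.01; the smallest was that of Napg, a SNAP protein that works with NSF (-0.16, SE 0.10, limma adjusted p 0.754). Of 12 other palmitoyltransferases, 1 was higher, Zdhhc12 (0.70, SE 0.29, limma adjusted p 0.518), with a median of -0.15. Of 23 genes of the ATG8 family and autophagy, 1 was lower, the ATG8 protease Atg4d (-0.32, SE 0.14, limma adjusted p 0.580), with a median of -0.07. Of 6 receptor subunits bound by the members, 1 was lower, Gabra2, the alpha2 subunit of GABA-A receptors (-0.85, SE 0.30, limma adjusted p 0.333), with a median of 0.06.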

How the data were processed

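Total RNA of 39 inferior colliculi was hybridized as biotin-labelled cRNA, per the labels' protocols. The deposited series values are intensities, and the sources used here name no algorithm for them; in the file each array has a trimmed mean (2% left out at each end) of 500.1 to 500.2. The authors deposited RMA signals (intensity) for 33 probe sets and, per the file headers, a ratio of each group to the young controls. Left aside were 249 columns of values for single samples in other sheets. Mice are numbered in accession order, and nothing pairs them across groups.

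Here 64 array controls were left out, and 20380 of 22626 probe sets had 1 gene symbol. limma 3.58.1 in R 4.3.3 fitted log2(intensity + 16), with no further normalization, with 34 residual and 5.58 prior degrees of freedom and 2-sided tests. Permutation tests (Python 3.11.15, NumPy 2.4.6) used 100000 resamples, or all arrangements where a group held under 10 mice. Scripts were tested on simulated data. The number of arrays limits the precision. Genes of the wider pathways were named where their unadjusted p for severe against young mice was under 0.05, at most 4 per list, or else the 1 with the smallest p; likeness was taken over the 3 most similar probe sets of other genes in the upper 60% by brightness. The members and lists were chosen with earlier results of these data known, and the correlations among members were added after the data were seen.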

Additional observations from a re-analysis of the deposited data

Results flagged for a closer look

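Of 45 sets of values tested (the 11 member probe sets and the 4 of the RMA table in the severe, mild and young mice), 3 held a mouse apart from its group by Dixon's criterion, which chance gives in about 1 of 20. Gabarapl1 1416418_at was 11.19 on the log2 scale in mild mouse 6, under the 11.41 to 11.62 of the other 8 mild mice; the same mouse was the lowest of all 39 for Gabarapl1 1416419_s_at. Nsf 1422456_at was 10.62 in severe mouse 5, under the 12.20 to 12.47 of the other 4 severe mice. Gabarap was 12.72 by RMA in young mouse 3, the highest of its group.

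In 2 probe sets the 1 severe male and the 4 severe females lay on opposite sides of the young mean of their own sex. This difference was not tested, and it rests on 1 male. How many of all probe sets show such a split was not counted, so it says nothing particular about the members. For Nsf 1422455_s_at the male was 0.85 above the young males and the females averaged -0.62 against the young females (-0.78 to -0.30). These are the same young mice as in the sex tests of that probe set. For Zdhhc3 1423647_a_at, the dimmest member, the male was 0.26 above and the females averaged -0.13. That probe set moved with the median intensity of the array (r = 0.69), and the part of this in the split was not tested.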

How the results depend on the processing

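The count of members called was 0 in each group comparison and each sex test, and stayed 0 under the alternatives run: quantile normalization, centring on the median, pseudocounts of 1 and 64, array weights, leaving out dim probe sets, the sex covariate, the other groups, the variance trend, either sex or the cerebellar arrays, 3' over 5' ratio or name suffix as covariates, the RMA table, and each severe, mild or young mouse or middle-aged mouse 4 left out (range 0 to 0). The sex tests were run only under the normalization, centring, pseudocount and dim probe set alternatives. The lowest adjusted p among 2427 such values was 0.0572, for Gabarapl2 in mild against young females (-0.48); in males alone that difference was 0.0054, the opposite sign to the -0.22 of both sexes. Of 66 pairwise differences, 7 had an unadjusted p under 0.05, and only this one changed sign; of the other 59, which have no settled direction, 31 changed sign in some setting. The within-array tests passed 0 times under each alternative (lowest adjusted p 0.565; leaving out each mild mouse was added after the data were seen). The correlation of the Gabarapl1 probe sets was 0.24, and -0.27 by RMA, an alternative added after the data were seen; by RMA 1416419_s_at spans 1.04-fold at the top of the scale, so that value says little about the relation. Over all probe sets the calls for severe against young mice numbered 120, with 43 for the 2 groups alone and 247 for females alone; for mild against young mice they numbered 38, with 7 for males alone and 464 for females alone. For severe against middle-aged mice 110 became 73 without severe mouse 1, for mild against middle-aged mice 25 became 3 in males and 79 in females, and for severe against mild mice 0 became 11 without severe mouse 4. Without severe mouse 5, the Gabarapl1 1416419_s_at difference moved from -1.20 to -0.39. No paired analysis was possible because the mouse numbers are unique.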
